A study of Mus musculus with 4 samples.

Results

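Some 1-kb stretches of the mouse liver genome are rich in CpG sites and yet neither fully methylated nor unmethylated. The genome was divided into 1-kb tiles without overlap from position 1 of each mm10 chromosome. Tiles were kept when they lay on an autosome, held 20 or more CpGs listed in any of the 4 libraries, held 3 or more CpGs that each library covered with at least 10 reads, and had an unweighted mean level of the 4 libraries between 20% and 80%. Such tiles numbered 1509 of 164026 tiles with 3 or more analysed CpGs, and of 21192 CpG-dense autosomal tiles. The level of a tile in a library is its methylated reads divided by all its reads, as a percentage. The tiles were chosen by the measured levels themselves, averaged over both genotypes, so their intermediate mean is a description and not a finding.

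Reduced representation bisulfite sequencing (RRBS), which reads DNA near the cut sites of chosen restriction enzymes, was done on liver DNA of 6-week-old C57BL6/N mice. The enzymes were TaqI and MspI. Livers of Pnpla7-/- mice (KO, 2 libraries) were set against livers of Pnpla7+/+ mice (WT, 2 libraries). Pnpla7 encodes a lysophospholipase that releases glycerophosphocholine, a source of choline and so of methyl groups. The labels name no treatment, sex, promoter or Cre driver, and do not say how the Pnpla7-/- allele was made. Whether separate mice gave the 2 libraries of each genotype is also not stated, so every p-value covers at most the spread between libraries, which may be technical. Methylation levels do not show whether the Pnpla7 gene was deleted.

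CpG-dense DNA around gene starts, the CpG island, is mostly unmethylated in every tissue, while CpG-poor DNA is mostly methylated. Intermediate levels are known at imprinted control regions, where the copy from one parent is methylated and the other is not. They are also known at the edges of CpG islands, at germline gene promoters, and where the cell types of a tissue differ. In bulk liver, a level of 40% cannot be told apart as methylation of some cells, of 1 allele, or of some molecules at random.

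The sequences show what such DNA looks like at gene starts where the reads reached most clearly. Each line gives the 250 bases before a RefSeq gene start on build GRCm38.p6, the assembly of mm10, read 5′ to 3′ on the gene's strand. Capitals mark the analysed CpGs, those with at least 10 reads in all 4 libraries. Mcts2 and Igf2r are imprinted genes, Ddx4 is a germline RNA helicase, and Akap5 and B3galt4 lie in tiles that were lower in KO livers. B3galt4 and Ddx4 were chosen after their values were seen.
Mcts2, chr2:152686898-152687147, plus strand: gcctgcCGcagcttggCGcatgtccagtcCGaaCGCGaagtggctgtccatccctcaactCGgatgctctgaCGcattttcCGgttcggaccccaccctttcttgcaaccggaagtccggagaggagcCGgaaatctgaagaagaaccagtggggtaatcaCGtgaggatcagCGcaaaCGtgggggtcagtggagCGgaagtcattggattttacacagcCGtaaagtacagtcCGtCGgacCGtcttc
Igf2r, chr17:12769707-12769956, minus strand: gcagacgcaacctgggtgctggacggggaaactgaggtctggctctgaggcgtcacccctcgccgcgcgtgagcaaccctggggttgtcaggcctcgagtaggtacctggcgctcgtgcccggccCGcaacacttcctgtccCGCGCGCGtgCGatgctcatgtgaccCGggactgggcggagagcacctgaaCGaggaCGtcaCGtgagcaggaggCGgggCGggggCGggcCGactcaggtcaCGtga
Ddx4, chr13:112652311-112652560, minus strand: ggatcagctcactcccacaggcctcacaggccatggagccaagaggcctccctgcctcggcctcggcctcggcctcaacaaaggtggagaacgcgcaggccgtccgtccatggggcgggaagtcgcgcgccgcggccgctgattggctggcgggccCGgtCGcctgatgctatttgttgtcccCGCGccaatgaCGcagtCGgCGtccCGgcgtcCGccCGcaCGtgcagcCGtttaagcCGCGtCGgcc
Akap5, chr12:76324641-76324890, plus strand: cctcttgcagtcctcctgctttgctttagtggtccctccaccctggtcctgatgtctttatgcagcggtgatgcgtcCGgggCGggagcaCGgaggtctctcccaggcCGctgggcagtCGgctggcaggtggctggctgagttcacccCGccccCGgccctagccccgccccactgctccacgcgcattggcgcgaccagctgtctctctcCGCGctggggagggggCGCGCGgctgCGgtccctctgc
B3galt4, chr17:33951489-33951738, minus strand: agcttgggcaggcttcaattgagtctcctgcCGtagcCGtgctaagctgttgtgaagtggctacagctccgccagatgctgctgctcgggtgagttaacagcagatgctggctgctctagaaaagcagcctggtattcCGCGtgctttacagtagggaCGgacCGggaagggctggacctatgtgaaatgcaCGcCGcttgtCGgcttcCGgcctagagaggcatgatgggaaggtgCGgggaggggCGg

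In the printed bases of Mcts2, a retrogene that is transcribed from inside H13, 17 of 20 CpGs were analysed. Their mean level was 41.7% and 47.2% in the KO libraries, against 45.9% and 44.2% in the WT libraries, so the genotypes overlapped. The stretch begins in the tile before. In Igf2r, the receptor that clears insulin-like growth factor 2, 15 of 27 CpGs had mean levels of 29.4% and 38.7% in KO libraries, against 46.7% and 40.3% in WT libraries. In Ddx4, 15 of 31 CpGs averaged 66.8% and 64.9% in KO libraries and 74.9% and 71.8% in WT libraries. In Akap5, which anchors protein kinase A, 13 of 20 CpGs averaged 39.01% and 44.1% in KO libraries, against 55.5% and 51.7% in WT libraries. In B3galt4, a galactosyltransferase of ganglioside synthesis, 12 of 14 CpGs averaged 33.8% and 34.1% in KO libraries, against 43.7% and 43.8% in WT libraries. Of these analysed CpGs, 10 were lower and 3 higher in KO at Akap5, and 10 were lower and 2 higher at B3galt4. The Mcts2 bases hold 1 copy of TGCCGC, the methylated motif that the imprint-guarding factor ZFP57 is known to bind, searched on both strands (reverse complement GCGGCA). The other 4 stretches hold none.

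Over all RefSeq promoters of 300 bases (250 before to 50 after a start), 11.6% held TGCCGC on either strand, 3813 of 32851. Of the 225 promoters that start in a CpG-dense tile of intermediate methylation, 25 held it (11.1%), and of the 10726 that start in a CpG-dense tile below 20%, 23.5%. Among the 9 promoters that start in such a tile of the imprinted list, 4 held it. The MspI site CCGG stood in 87.6% of the 225 promoters, against 52.8% of all promoters. These promoters had a median of 17 CpGs per 300 bases, between 25 at starts in CpG-dense tiles below 20% and 7 over all promoters. A match is a stretch of letters only, and does not show that a factor bound there.

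The tiles covered every autosome, where they made up 3.59% to 9.32% of CpG-dense tiles. They held a median of 25 listed CpGs (20 to 145), of which a median of 15 were analysed (3 to 118). The 4-library level had a median of 45.5%. The shallowest library had a median of 358 reads in a tile, from 31 to 3154. At 358 reads and a level near 50%, counting error alone gives a 95% exact Clopper-Pearson interval of 44.7% to 55.3%. Just inside the lower limit lay tiles in Stox1 (20.003%) and Uqcrc1 (20.004%), and just outside it tiles of Osbpl3 (19.99%) and B3gnt3 (19.94%). Just inside the upper limit lay Krt42 (79.99%) and Fam110a (79.98%), and just outside it Midn (80.02%) and Gm36254 (80.07%). By number of listed CpGs, tiles of intermediate level continued below the limit, with 277 at 19 CpGs and 217 at 20, so the set has no natural edge on either measure.

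Most of the tiles lay in gene bodies away from gene starts. In all, 1267 (84.0%) overlapped a gene, 145 had a gene within 10 kb, and 97 had none. A RefSeq gene start fell in 201 of the 1453 tiles on chromosomes with promoter entries (13.8%). That share was 49.0% for CpG-dense tiles below 20%, 2.78% for CpG-dense tiles above 80%, and 2.88% for CpG-poor tiles of 20% to 80%. Most had no neighbour of the set: the 1509 tiles formed 1433 runs, and 1367 stood alone in this sense. A neighbouring tile of 20% to 80% with fewer than 20 listed CpGs did not count. In 442 tiles neither neighbouring tile was analysed, and in 336 both were, so many neighbours could not be judged. The longest run was 4 tiles in Gnas, the imprinted gene of the stimulatory G protein alpha subunit, at chr2:174297001-174301000.

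A mean near the middle can come from CpGs that are all intermediate or from low and high CpGs side by side, and the tiles held both kinds. In 744 tiles (49.3%), here called uniform, at least 60% of analysed CpGs had a 4-library mean of 20% to 80%. In 261 tiles, here called stepped, there were CpGs under 20% and CpGs over 80%, with fewer than 40% between. The other 504 were mixed. Of the 26393 analysed CpGs in all tiles, 58.9% lay between 20% and 80%, 25.5% below and 15.6% above. Uniform tiles had 81.3% of CpGs in the middle range, as the definition asks, and 12.6% to 14.9% of them in each step of 10 points from 20% to 80%. The threshold decides the share, which was 26.9% when 80% of the CpGs had to be intermediate.

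**Figure D1:**
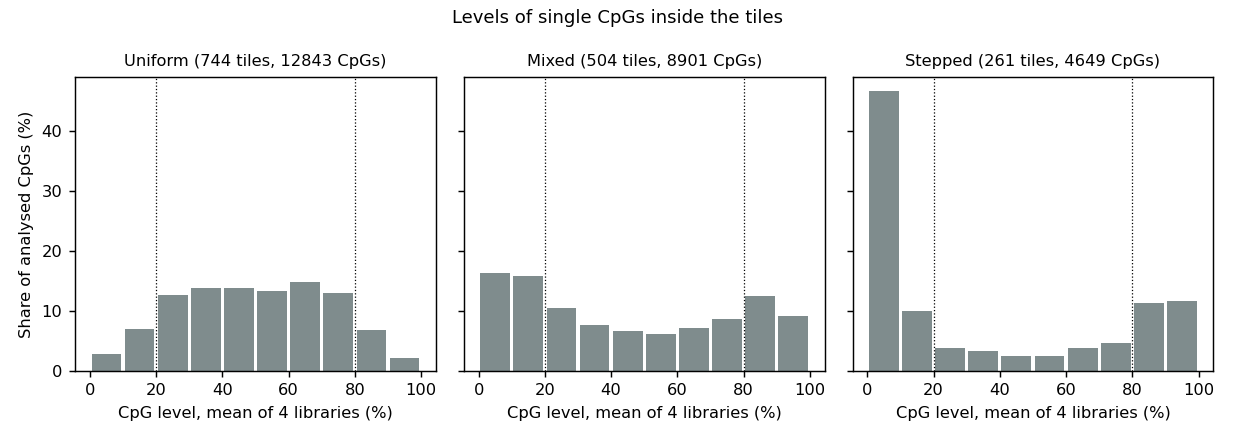
Share of analysed CpGs (y axis, %) by level, the mean of the 4 libraries (x axis, %, in steps of 10), in uniform, mixed and stepped tiles. Dotted lines mark 20% and 80%. Stepped tiles had 46.6% of CpGs under 10%, against 2.75% in uniform tiles.

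In stepped tiles the low and the high CpGs were sorted along the DNA, which the definition did not ask for. Of 261 stepped tiles, 243 (93.1%) changed just 1 time between low and high CpGs. The gap between the last CpG of one kind and the first of the other had a median of 358 bp. A stepped tile held a median of 9 low and 3 high CpGs. Where both neighbouring tiles were measured, they were of opposite kind, one below 20% and the other above 80%, in 43 of 71 stepped tiles (60.6%) and in 22 of 153 uniform tiles (14.4%). A gene start fell in 23.6% of stepped tiles and in 11.5% of uniform tiles.

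The stepped tiles with the most analysed CpGs show this edge. The tile in Mocs3, which takes part in molybdenum cofactor synthesis and tRNA thiolation (chr2:168231001-168232000), had 50 CpGs under 20%, 5 between and 13 above 80%. Its level was 26.4% and 24.9% in KO libraries and 28.8% and 25.5% in WT libraries. In Zfp703, a transcriptional repressor (chr8:26979001-26980000), 20 CpGs were low, 24 between and 21 high, and the tile had 39.2% and 42.9% in KO libraries and 45.9% and 45.3% in WT libraries. In Tspan4, a tetraspanin of migrasomes (chr7:141482001-141483000), 37 CpGs were low, 14 between and 2 high, at 21.9% and 18.5% in KO libraries and 22.7% and 21.4% in WT libraries. The genotypes overlapped at Mocs3 and Tspan4 and not at Zfp703. None of the 3 was called when single tiles were tested.

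The uniform tiles with the most analysed CpGs and the tiles with the most listed CpGs or reads lay inside genes. The tile with the most listed CpGs, 145, was in Fignl2, a fidgetin-like ATPase (chr15:101053001-101054000). Its level was 64.5% and 67.9% in KO libraries, against 70.1% and 66.6% in WT libraries, and the genotypes overlapped. In Zmiz1, a transcriptional coactivator of the PIAS-like family (chr14:25607001-25608000, 111 listed CpGs), it was 33.7% and 38.8% in KO libraries, against 45.0% and 42.9% in WT libraries. That difference passed the adjusted threshold (adjusted p = 0.0206, moderated quasi-binomial model) but at -7.72 points fell short of the 10 points asked for. In Bloc1s3, a subunit of a lysosome-related organelle complex (chr7:19507001-19508000), it was 32.4% and 35.96% in KO libraries, against 41.1% and 38.7% in WT libraries. Zfp316, a mixed tile with 136 listed CpGs, had 22.6% and 24.0% in KO libraries and 22.6% and 24.9% in WT libraries. Agap3, an Arf GTPase activator, a mixed tile and the one with the most reads in the shallowest library, had 24.2% and 20.5% in KO libraries and 28.5% and 23.1% in WT libraries.

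**Figure D2:**
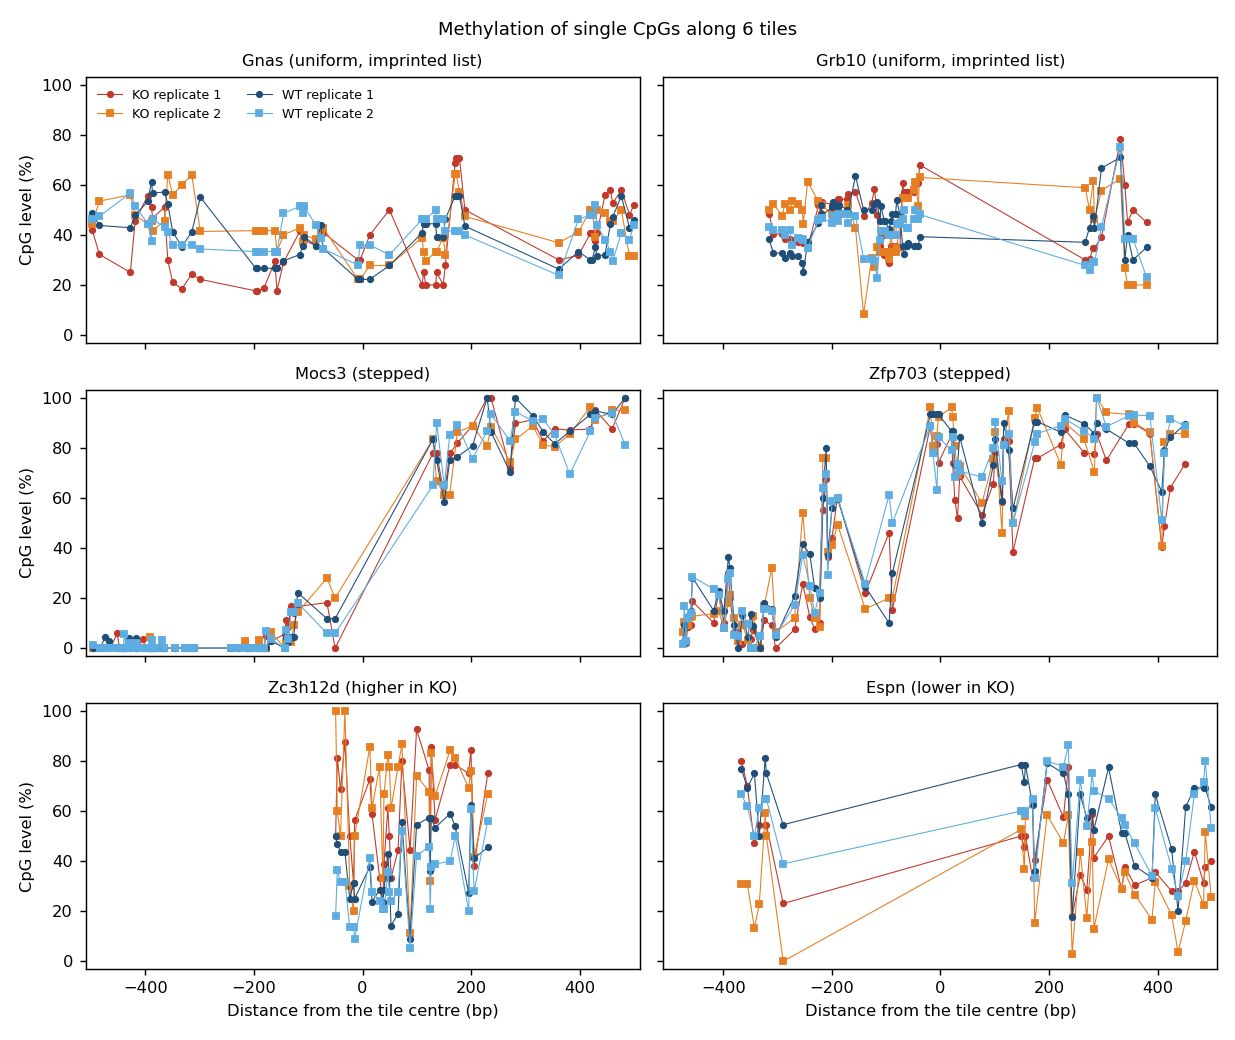
Methylation level of each analysed CpG (y axis, %) against its distance from the tile centre (x axis, bp) in 6 tiles, with 1 line per library. CpGs of Gnas and Grb10 lie in a middle band along the tile, those of Mocs3 and Zfp703 pass from low to high, and the KO libraries are above the WT libraries on average at Zc3h12d and below them at Espn.

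Averaged over the 1509 tiles, both KO libraries lay below both WT libraries. The mean level was 47.6% and 46.5% in the KO libraries, against 48.5% and 47.9% in the WT libraries. The KO mean was 47.1% ± 0.817 and the WT mean 48.2% ± 0.425 (SD, n = 2 each), a difference of -1.10 points. The exact two-sided permutation test over the 4 libraries gave p = 0.3333, the smallest that 2 against 2 allow, so this design cannot pass a threshold of 0.05. Leaving out KO replicate 2 left -0.525 points, less than the SD between the KO libraries, and leaving out KO replicate 1 gave -1.68 points. That CpGs of intermediate level in CpG-dense DNA are lower in the KO libraries was known from these data before, so it is not independent support.

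By tile, 908 were lower and 601 higher in KO. The share lower was 60.2%, against 46% of all tested tiles and 43.2% of CpG-poor tiles of 20% to 80%. Both KO libraries lay below both WT libraries in 386 tiles (25.6%), against 14.9% of all tested tiles. Both lay above in 225 tiles (14.9%), against 19.5% of all tested tiles. Without KO replicate 2, 53.7% of the tiles were lower. The mean was lower in KO on 19 of 19 autosomes. On chromosomes 1, 2, 3, 5, 10, 13, 17 and 18 the libraries of the genotypes overlapped. The difference was only -0.0797 points on chromosome 18, and on chromosome 3 only 18 of 38 tiles were lower. Tiles share their libraries, so these counts are a description and were not tested.

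CpG-poor tiles of the same level range went the other way. Over 42432 such tiles, the mean was 62.2% and 61.9% in KO libraries, against 61.2% and 60.6% in WT libraries, a difference of 1.12 points. Library by library, the CpG-dense mean minus the CpG-poor mean was -14.5 and -15.4 points in the KO libraries, against -12.8 and -12.8 points in the WT libraries. The difference of differences was -2.23 points with an SD of 0.450, and the exact permutation p was 0.3333, the smallest possible. It ran from -1.78 to -2.68 points when each library was left out. CpG-dense tiles above 80% differed by 0.0510 points and CpG-dense tiles below 20% by -0.0601 points. Against those above 80%, the difference of differences was -1.15 points (SD 0.688; exact permutation p = 0.3333), with -0.549 points when KO replicate 2 was left out and -1.76 points without KO replicate 1.

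The difference was larger in tiles with more CpGs when all 4 libraries were used. With 20 to 29 listed CpGs (1057 tiles), the mean was 49.6% and 48.3% in KO libraries, against 49.9% and 49.6% in WT libraries, and the genotypes overlapped. With 30 to 39 (262 tiles) it was 45.0% and 44.1% in KO libraries, against 46.3% and 45.4% in WT libraries. With 40 to 59 (147 tiles) it was 40.3% and 39.9% in KO libraries, against 43.0% and 41.8% in WT libraries. With 60 or more (43 tiles) it was 40.4% and 39.6% in KO libraries, against 45.4% and 41.8% in WT libraries. The differences were -0.772, -1.33, -2.34 and -3.61 points in that order. Without WT replicate 1 the last class had -1.80 points, close to the -1.73 points of tiles with 40 to 59, and the class of 30 to 39 had -0.875 points. Without KO replicate 2 the first class had -0.105 points and the class of 30 to 39 -0.874 points. Without KO replicate 1 the first class had -1.44 points, and without WT replicate 2 the last had -5.43 points. These leave-one-out values were added after seeing the data. In the last class the WT libraries stood 3.63 points apart, as far as the genotypes did. Tiles with 40 or more minus tiles with 20 to 29 listed CpGs gave a difference of differences of -1.85 points (SD 0.834; exact permutation p = 0.3333), and -1.13 points without WT replicate 1.

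**Figure D3:**
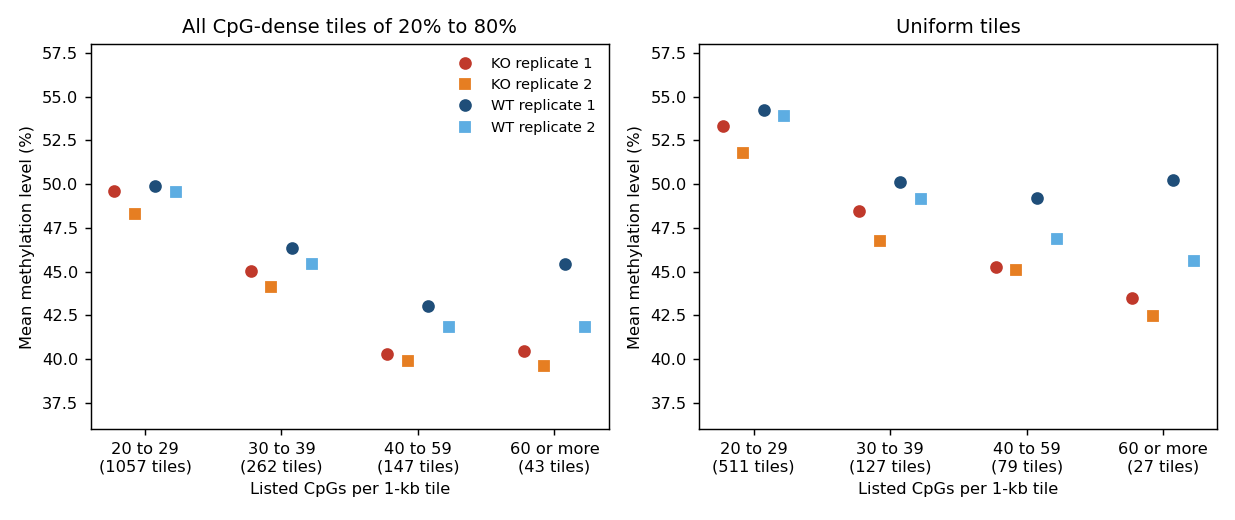
Mean methylation level (y axis, %) by number of listed CpGs in a tile (x axis), for all 1509 tiles and for the 744 uniform tiles, with 1 point per library; the y axis does not start at 0. KO points lie below WT points in every class except 20 to 29 CpGs over all tiles, where they overlap.

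The difference was larger in uniform tiles. Their mean was 51.3% and 49.9% in KO libraries, against 52.9% and 52.0% in WT libraries, a difference of -1.86 points, and 483 of 744 were lower. Without KO replicate 2 it was -1.16 points. Stepped tiles had 36.4% and 35.9% in KO libraries and 36.8% and 36.3% in WT libraries, and mixed tiles differed by -0.347 points, or by 0.200 points without KO replicate 2; both overlapped. Uniform minus stepped tiles gave a difference of differences of -1.46 points (SD 0.468; exact permutation p = 0.3333). By level, the difference was -2.14 points in tiles of 60% to 70% and -0.101 points in tiles of 70% to 80%. Tiles with a gene start (201) averaged 39.6% and 38.7% in KO libraries, against 41.1% and 40.4% in WT libraries.

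For single tiles, methylated and unmethylated reads were fitted with a moderated quasi-binomial model across all tiles of the genome. A tile was called when its Benjamini-Hochberg adjusted p over all tiles was under 0.05 and its genotypes differed by at least 10 points. Of the 1509 tiles 26 were called (1.72%), against 0.0807% of all tested tiles and 0.205% of CpG-poor tiles of 20% to 80%. KO was higher in 9 (0.596%, against 0.0617% of all tested tiles) and lower in 17 (1.13%, against 0.0189%). Depth was not alike: the median of mean reads per library was 424 in these tiles and 111 over all autosomal tiles. It was 100.5 in CpG-poor tiles of 20% to 80%. The median level over all autosomal tiles was 81.8%. The part of depth and level in these shares and the next was not tested. At an unadjusted p under 0.05 stood 322 tiles (21.3%), against 5.84% of all tested tiles. Libraries of 1 genotype also differed more here than the model assumes from tiles of like depth, except at the lowest depth. Dispersion is given as a mean, where 1 is counting noise alone. At 256 to 512 mean reads per library, the class with the most tiles (574), it was 3.08, against 2.52 in CpG-poor tiles of the same level range. At 512 to 1024 reads the gap was widest, 5.15 against 3.14, and above that it was 7.86 against 7.17. At 32 to 64 reads it was 1.15 against 1.37. With the spread estimated on these tiles alone, 2 calls were left (against 0.0623% of all tested tiles), Hapln4 (adjusted p = 0.0416) and Zc3h12d (adjusted p = 0.0457). Limma was fitted to the log2 ratio of methylated over unmethylated reads. It made 0 calls here and 0 over all 163610 tested tiles, so its 0 calls in any set say nothing particular to that set. It put 28 tiles (1.86%) at an unadjusted p under 0.05, against 5.54% of all tested tiles.

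**Figure D4:**
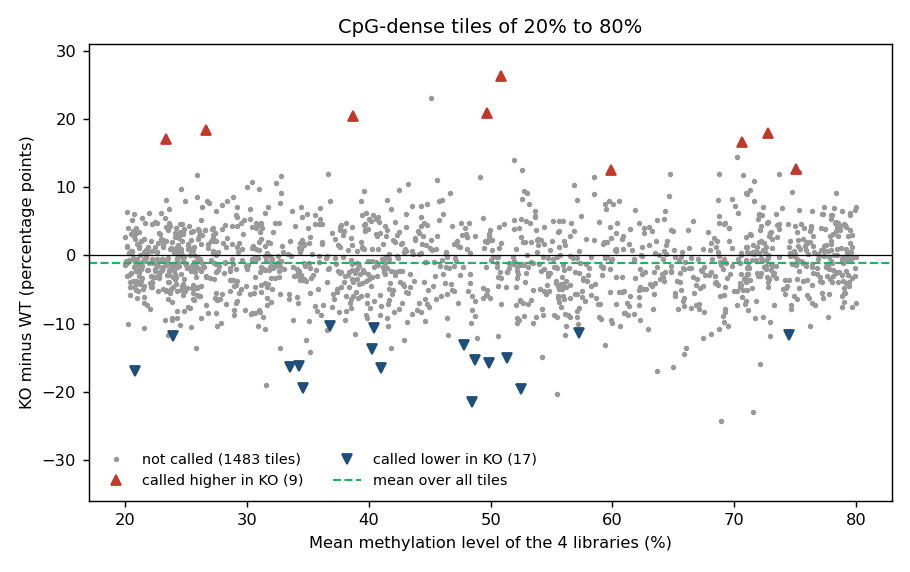
Difference between genotypes (y axis, KO minus WT, percentage points) against the 4-library level (x axis, %) for the 1509 tiles. Triangles are the 9 tiles called higher and the 17 called lower in KO, and the dashed line is the mean over all tiles, -1.10 points.

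Among the called tiles the largest rise was in Zc3h12d, a ribonuclease gene of the Regnase family (chr10:7867001-7868000). Its level was 62.4% and 65.6% in KO libraries, against 42.6% and 32.9% in WT libraries, a difference of 26.3 points (adjusted p = 3.2e-05). All 29 of its analysed CpGs were higher in KO. In Nfic, a transcription factor of the nuclear factor I family, the tile chr10:81420001-81421000 had 49.7% and 48.1% in KO libraries, against 33.3% and 23.6% in WT libraries. A tile near Nfic, at chr10:81433001-81434000, had 35.9% and 27.8% in KO libraries, against 13.7% and 15.9% in WT libraries. Prlr, the prolactin receptor (chr15:10178001-10179000), had 33.5% and 38.2% in KO libraries, against 18.9% and 15.9% in WT libraries. In these 4 tiles the genotypes stood further apart than the libraries of either genotype.

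Fbrsl1 (chr5:110431001-110432000) had 58.99% and 61.3% in KO libraries, against 43.8% and 34.8% in WT libraries. The receptor gene Notch1 (chr2:26460001-26461000) had 84.1% and 79.3% in KO libraries, against 55.8% and 71.8% in WT libraries, so the WT libraries were nearly as far apart as the genotypes. Tsku, a secreted protein of liver (chr7:98352001-98353000), had 78.9% and 83.7% in KO libraries, against 68.3% and 69.1% in WT libraries. Srsf6, a splicing factor (chr2:162934001-162935000), had 64.7% and 67.6% in KO libraries, against 55.2% and 52.1% in WT libraries. A tile with no gene within 10 kb (chr2:34147001-34148000) had 80.4% and 77.5% in KO libraries, against 63.7% and 61.0% in WT libraries. No gene start lay in any of the 9.

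Among the called tiles the largest fall was in Espn, which encodes the actin-bundling protein espin, in a pair of adjoining tiles. The tile chr4:152125001-152126000 had 43.1% and 32.3% in KO libraries, against 59.5% and 58.9% in WT libraries, a difference of -21.5 points (adjusted p = 0.000277). All 33 of its CpGs were lower in KO. The next tile had 49.9% and 35.5% in KO libraries, against 67.1% and 57.5% in WT libraries, with KO replicate 2 the lowest in both. Hapln4, a link protein of hyaluronan matrix (chr8:70088001-70089000), had 13.2% and 11.3% in KO libraries, against 30.5% and 28.0% in WT libraries (adjusted p = 8.96e-06), and 35 of 36 CpGs were lower. Lrrc8d, a subunit of the volume-regulated anion channel (chr5:105732001-105733000), had 25.4% and 24.4% in KO libraries, against 46.3% and 42.4% in WT libraries, and all 27 CpGs were lower.

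Nacad (chr11:6599001-6600000) had 32.6% and 33.0% in KO libraries, against 50.2% and 48.3% in WT libraries. The tile of Phospho1, a phosphocholine phosphatase, and Abi3 (chr11:95830001-95831000) had 31.03% and 19.7% in KO libraries, against 46.7% and 36.7% in WT libraries. The adaptor gene Sh3bp2 (chr5:34549001-34550000) had 27.3% and 25.03% in KO libraries, against 45.4% and 39.4% in WT libraries. Its tile and that of Akap5 hold a gene start. Akap5 (chr12:76324001-76325000) had 38.1% and 44.0% in KO libraries, against 58.1% and 54.7% in WT libraries. Rfx1, a transcription factor (chr8:84084001-84085000), had 41.8% and 42.1% in KO libraries, against 54.5% and 61.0% in WT libraries. Ccdc124 (chr8:70868001-70869000) had 43.6% and 44.1% in KO libraries, against 59.8% and 57.9% in WT libraries. Nfix, of the same family as Nfic, had adjoining tiles that were called lower. The tile chr8:84784001-84785000 had 32.9% and 34.0% in KO libraries, against 46.0% and 48.3% in WT libraries. The tile chr8:84785001-84786000 had 51.7% and 51.5% in KO libraries, against 62.3% and 63.6% in WT libraries. Of these, only the first was called whichever library was left out.

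All 17 tiles called lower lay in genes, against 84.0% of the 1509. Of the 17, 4 held a gene start, against 13.8%, and 15 were uniform, as were 6 of the 9 called higher, against 49.3%. Chromosome 8 held 6 of the 17, some of them adjoining tiles, and 120 of all 1509 (7.95%). Within a called tile, 78.6% to 100% of the CpGs moved in the direction of the tile, with a median of 93.8%. The calls rest on the summed reads of these same CpGs. So this agreement, also where given for single tiles above, is not independent support. Of the 26, 13 were called whichever library was left out, among them Zc3h12d, both Nfic tiles, Prlr, Tsku, both Espn tiles, Lrrc8d, Hapln4, Nacad and Sh3bp2. Leaving out 1 library ended the call for Fbrsl1, Notch1, Srsf6, Akap5, Rfx1, Ccdc124 and B3galt4. The same was true of the tile of Phospho1 and Abi3, and of the tile with no gene within 10 kb. Without the CpG that differed most in each tile, 19 of the 26 were called.

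**Figure D5:**
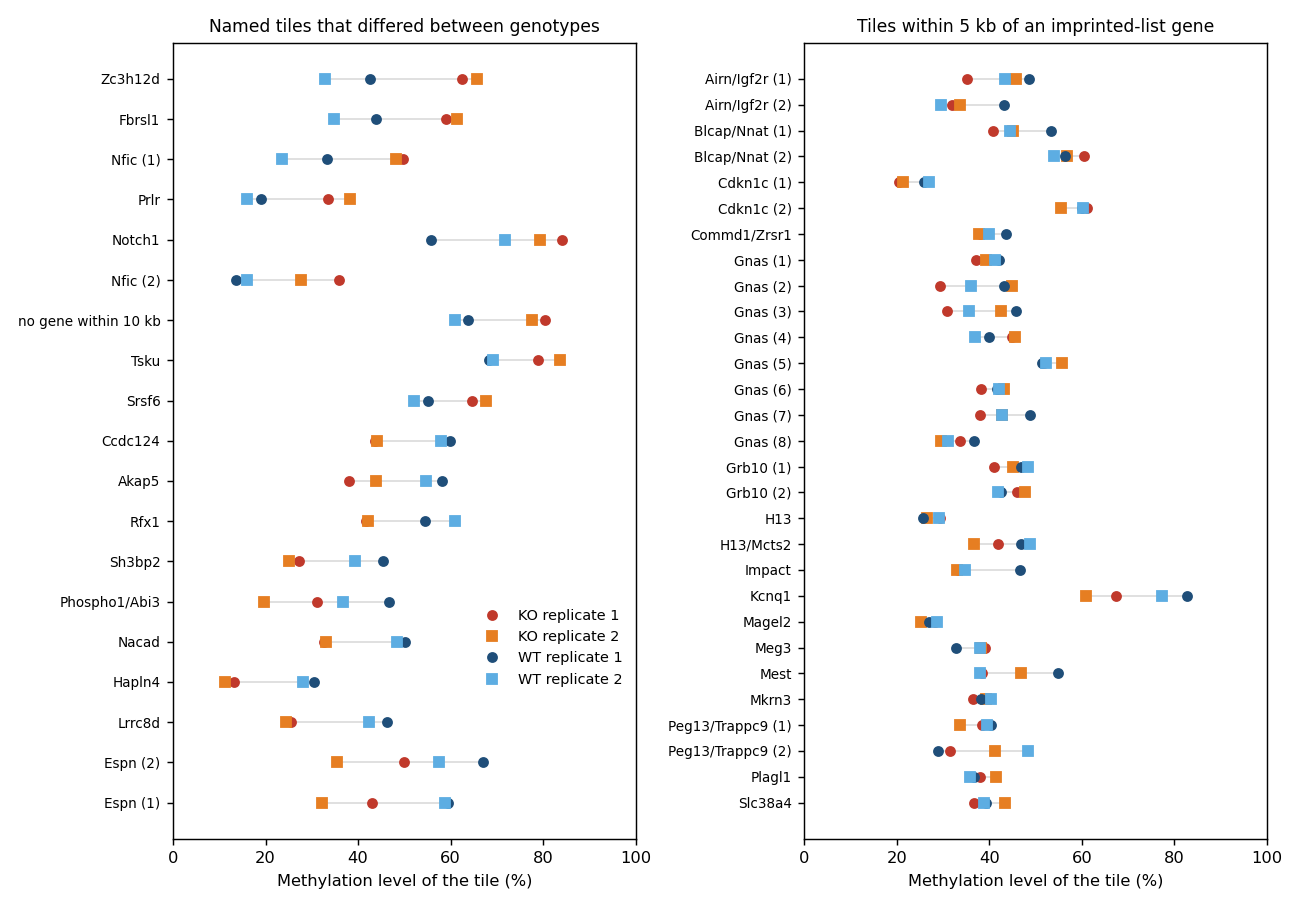
Methylation level (x axis, %) of each library, 1 point each. On the left are the 19 called tiles with the largest differences each way (rises above, falls below). On the right are the 29 tiles within 5 kb of a gene of the imprinted list. Numbers in brackets order tiles of 1 gene by position. In the left panel KO and WT points do not overlap in any row, and in the right panel they overlap in 16 of 29 rows.

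Imprinted genes, which are expressed from 1 parental copy, held tiles that were mostly uniform as defined above. Of the 48 genes of that list 47 were matched, and 21 had at least 1 of 29 tiles within 5 kb. Gnas held more of the 29 than any other gene, and overlapping genes such as H13 and Mcts2 counted separately for 1 tile. Of the 29, 27 were uniform (93.1%), against 49.3% of all 1509. A uniform tile need not be even: CpG means ran from 23.9% to 72.8% at Mest and from 31.9% to 44.8% at Plagl1. The tile levels of the 29 had a median of 39.8% (23.6% to 72.1%). The median difference was -2.50 points, against -1.13 points over all 1509. In KO, 21 were lower (72.4%, against 60.2% of the 1509 and 46% of all tested tiles) and 8 higher. The quasi-binomial model called 0, against 1.72% of the 1509 and 0.0807% of all tested tiles. Limma called 0, as over all tested tiles. At an unadjusted p under 0.05, the quasi-binomial model counted 6 of the 29 (20.7%, against 21.3% of the 1509 and 5.84% of all tested tiles) and limma 1 (3.45%, against 1.86% and 5.54%). Both KO libraries lay below both WT libraries in 8 tiles and above them in 5. Those shares were 25.6% and 14.9% over the 1509, and 14.9% and 19.5% over all tested tiles. The mean was 39.2% and 41.3% in KO libraries, against 43.8% and 41.5% in WT libraries, a difference of -2.38 points (exact permutation p = 0.3333). Without WT replicate 1 it was -1.26 points and without KO replicate 1 -1.31 points; without KO replicate 2 it was -3.44 points. At a coverage minimum of 5 reads it was -0.865 points.

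At genes whose control regions are known to carry a parental mark from the germline, CpGs kept to a middle band. The tile of Plagl1 (chr10:13090001-13091000), a growth-restraining zinc finger gene, had 38.0% and 41.5% in KO libraries and 36.6% and 35.8% in WT libraries, with CpG means between 31.9% and 44.8%. In Grb10, an adaptor that restrains insulin signalling (chr11:12026001-12027000), 52 of 52 CpGs were intermediate, at 46.0% and 47.8% in KO libraries, against 42.5% and 41.8% in WT libraries. In Gnas (chr2:174299001-174300000), 52 of 52 CpGs were intermediate, at 38.3% and 43.2% in KO libraries and 41.6% and 42.1% in WT libraries. At Peg13 within Trappc9 (chr15:72809001-72810000) the tile had 38.4% and 33.6% in KO libraries, against 40.3% and 39.5% in WT libraries. The KO libraries were above the WT libraries in these tiles of Plagl1 and Grb10, below them at Peg13, and overlapped them at Gnas. Other tiles of the same genes differed in direction. The Grb10 tile next to it, chr11:12025001-12026000, had 41.0% and 45.0% in KO libraries, against 46.8% and 48.3% in WT libraries. Gnas had a tile with KO above (chr2:174297001-174298000; 44.8% and 45.6% in KO libraries, against 40% and 36.9% in WT libraries) and one with KO below (chr2:174284001-174285000; 37.2% and 39.4% in KO libraries, against 42.1% and 41.3% in WT libraries). No direction holds for either gene as a whole.

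Mcts2 within H13 (chr2:152687001-152688000) had 41.8% and 36.7% in KO libraries, against 46.9% and 48.7% in WT libraries. Zrsr1, a splicing factor retrogene within Commd1 (chr11:22972001-22973000), had 37.9% and 37.8% in KO libraries, against 43.6% and 39.8% in WT libraries. Nnat within Blcap (chr2:157560001-157561000), neuronatin, had 40.7% and 45.2% in KO libraries and 53.3% and 44.6% in WT libraries. Mest (chr6:30735001-30736000) had 38.3% and 46.8% in KO libraries and 54.9% and 38.0% in WT libraries, a wider spread within WT than between genotypes. Igf2r at its own start (chr17:12769001-12770000) had 31.9% and 33.7% in KO libraries and 43.3% and 29.6% in WT libraries. The tile of Impact (chr18:12973001-12974000) had 33.2% and 33.1% in KO libraries, against 46.7% and 34.8% in WT libraries. WT replicate 1 was the highest library at Zrsr1, Nnat, Mest, Igf2r and Impact.

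Meg3, a maternally expressed long non-coding RNA (chr12:109541001-109542000), had 39.1% and 38.2% in KO libraries and 32.7% and 38.0% in WT libraries, on 8 CpGs. The amino acid transporter gene Slc38a4 (chr15:97055001-97056000) had 36.7% and 43.4% in KO libraries and 39.4% and 38.9% in WT libraries. Cdkn1c, a cell cycle inhibitor (chr7:143460001-143461000), had 20.5% and 21.2% in KO libraries, against 25.9% and 26.96% in WT libraries. A tile in Kcnq1, a potassium channel gene (chr7:143154001-143155000), had 67.4% and 60.9% in KO libraries, against 82.7% and 77.4% in WT libraries, on only 4 CpGs. A further tile in H13 (chr2:152707001-152708000) had 29.3% and 26.5% in KO libraries and 25.7% and 29.1% in WT libraries. The tiles of Magel2 and Mkrn3, the only ones of the list that were not uniform, had 28.3% and 25.2% in KO libraries and 26.97% and 28.8% in WT libraries at Magel2, and 36.6% and 39.3% in KO libraries and 38.1% and 40.4% in WT libraries at Mkrn3.

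Germline genes, whose promoters are known to be methylated in body tissues, had 7 tiles, of which 5 were uniform and 5 lower in KO. Ddx4 (chr13:112652001-112653000) had 69.5% and 67.4% in KO libraries, against 76.6% and 73.7% in WT libraries. Dazl, an RNA-binding protein of germ cells (chr17:50293001-50294000), had 76.9% and 79.2% in KO libraries and 79.5% and 73.7% in WT libraries. Tdrd1, of the piRNA pathway (chr19:56826001-56827000), had 54.5% and 59.01% in KO libraries and 55.7% and 60.04% in WT libraries. Stag3, a meiotic cohesin subunit (chr5:138275001-138276000), had 45.2% and 44.9% in KO libraries and 50.3% and 43.0% in WT libraries. The clustered protocadherins, cell surface proteins of neurons, had 22 tiles, of which 15 were uniform, 10 lower and 12 higher in KO.

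Developmental transcription factors had 14 tiles, 10 of them uniform, with 6 lower and 8 higher in KO. Tbx3 (chr5:119680001-119681000) had 68.9% and 68.5% in KO libraries and 71.9% and 67.8% in WT libraries. Gata4 (chr14:63241001-63242000) had 53.2% and 69.7% in KO libraries and 61.3% and 62.9% in WT libraries, so the KO libraries lay on either side of WT. Lhx1 (chr11:84520001-84521000) had 19.7% and 25.9% in KO libraries and 26.7% and 14.0% in WT libraries. The Hox genes, which pattern the body axis, had 2 tiles, both near the lower limit and mixed: Hoxa3 at 24.1% and 20.7% in KO libraries and 24.3% and 16.2% in WT libraries, and Hoxb3 at 29.5% and 17.1% in KO libraries and 17.9% and 16.0% in WT libraries.

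Of the genes that write and remove DNA methylation, Tet1 and Tet3 had 1 tile each. Tet3 (chr6:83368001-83369000) had 82.4% and 79.0% in KO libraries, against 77.3% and 78.4% in WT libraries. Tet1 (chr10:62885001-62886000) had 35.2% and 40.9% in KO libraries, against 45.7% and 42.0% in WT libraries. Methyl donor and choline genes had 4 tiles, 2 of them lower and 2 higher in KO, and the 2 given here are the lower ones. Pnpla6, the closest relative of Pnpla7 (chr8:3517001-3518000), had 37.0% and 44.2% in KO libraries and 44.5% and 41.4% in WT libraries. A tile in Cpt1b next to the choline kinase gene Chkb (chr15:89425001-89426000) had 63.6% and 63.1% in KO libraries, against 73.9% and 74.4% in WT libraries. In every list other than the imprinted genes the quasi-binomial model and limma also called 0 tiles, and their tiles at an unadjusted p under 0.05 numbered 9 of 52 by the quasi-binomial model (17.3%, against 21.3% of the 1509 and 5.84% of all tested tiles) and 0 by limma.

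Marker genes of hepatocytes, leukocytes and Kupffer cells, endothelium, and stellate cells had no CpG-dense tile of intermediate methylation, so they were read in tiles of 20% to 80% of any CpG density. In 13 such tiles near hepatocyte markers the mean was 58.2% and 52.2% in KO libraries, against 50.3% and 49.5% in WT libraries, and 3 were lower. Of CpG-poor tiles of 20% to 80%, 43.2% were lower. In 13 tiles near leukocyte and Kupffer markers it was 67.8% and 67.1% in KO libraries and 67.2% and 68.7% in WT libraries, and 6 were lower. In 19 endothelial tiles it was 55.5% and 57.0% in KO libraries and 57.9% and 56.0% in WT libraries. Of these, 11 were lower, with a median difference of -0.814 points. In 19 tiles near stellate and fibroblast markers 10 were lower, with a median difference of -0.200 points. Over all tiles near them, hepatocyte markers had a median level of 50.01% and leukocyte markers of 81.6%. The part of a differing cell makeup in the values above was not tested. Of the bile duct markers, the keratin gene Krt7 had 32.1% and 18.1% in KO libraries and 31.4% and 24.95% in WT libraries. A tile of Sox9, a transcription factor (chr11:112784001-112785000), had 48.7% and 37.7% in KO libraries and 40.9% and 41.4% in WT libraries.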

How the data were processed

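The authors deposited 2 tracks for each library, methylation level and read depth per cytosine, made by the program GBSA on mm10, per the file headers. Per the submitters' processing notes BWA 0.7.12 and MACS were used, with no role stated; trimming, alignment settings and duplicate removal: not given in the sources used here. The deposited level is a fraction and the deposited depth a count of reads, and both are negative where the cytosine is on the reverse strand. Level times depth was whole at 100% of cytosines (tolerance 1e-06), from which read numbers were recovered and then summed over the strands of each CpG. Totals were 59953688 and 60535892 reads over listed cytosines in the KO libraries and 50413170 and 59437109 in the WT libraries. Of 3485585 CpGs listed in any library, 1600691 had at least 10 reads in all 4 and were analysed. Intervals cover counting error only, since amplified reads are not independent molecules.

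Of the tiles, 163610 with methylated and unmethylated reads were tested over all 4 libraries with genotype as the only term: a quasi-binomial model, its Pearson dispersion on 2 residual degrees of freedom shrunk by the method of limma 3.58.1 to a prior that follows depth, never below 1, tested two-sided with a quasi-likelihood F test. Adjusted p-values come from it, by Benjamini-Hochberg over these tiles, except where the text names another prior or limma. The model was also run on simulated reads, whose outcome is not given here. Means over tiles were compared by exact permutation over libraries. R 4.3.3, Python 3.11.15, pandas 2.3.3, scipy 1.17.1 and matplotlib 3.10.9 were used.

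Genes, starts and promoter bases are RefSeq on GRCm38.p6; of 246285 listed CpGs in promoter entries 100% read CG. Starts were counted on chromosomes with promoter entries, and tile sequence beyond promoters was not used here. Tiles were named by the gene that holds them or the nearest within 10 kb. Named were called tiles (up to 10 each way with the largest difference and 100 reads in every library), 1 tile per imprinted gene or pair, the 3 uniform, the 3 stepped, the 3 most CpG-rich and the 3 deepest tiles, tiles at the thresholds, and up to 3 tiles for each other list, within 2 kb. Ddx4, B3galt4 and Nfix were named outside this rule. The tiles, lists, named-tile rule and tests were chosen with earlier results of these data known. Replicate numbers were not taken as pairs, since deviations of same-numbered libraries correlated at -0.0431 over the tiles and no label ties them. Alternatives changed the coverage minimum, tile offset, level range, CpG numbers, prior, test, difference, block and libraries.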

Additional observations from a re-analysis of the deposited data

How the results depend on the processing

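The 26 called tiles became 15 with at least 10 analysed CpGs, 9 among tiles with 40 or more listed CpGs, 4 at a difference of at least 20 points, 0 with limma on log2 ratios, and 2 with the prior of these tiles alone, which was chosen after seeing the data. Leaving out each library gave 32 to 50 calls (50 without KO replicate 1, 41 without KO replicate 2, 32 without WT replicate 1 and 36 without WT replicate 2), each fit with 1 residual degree of freedom fewer and a lone library assumed to vary like the others. With the replicate block there were 53 calls, and the block left the mean difference at -1.10 points (-0.825 within number 1 and -1.38 within number 2). The other alternatives gave 18 to 30 calls. Limma called 0 of all tested tiles as well. The mean difference was -2.62 points among tiles with 40 or more listed CpGs and ran from -1.68 to -0.525 points without 1 library. The share lower in KO was 62.9% at 30% to 70%, 73.2% with 40 or more listed CpGs, and 53.7% to 61.8% without 1 library. The share of uniform tiles was 46.5% at 5 reads, 57.1% at 20 reads, 68.2% at 30% to 70%, 55.8% with 40 or more listed CpGs, and 26.9% when 80% of CpGs had to be intermediate; the level range and the definition set that share by construction, and the cause of the other changes was not tested. Without 1 library, the difference of differences ran from -2.68 to -1.78 points against CpG-poor tiles, from -1.76 to -0.549 points against CpG-dense tiles above 80%, and from -1.89 to -1.03 points for uniform against stepped tiles, and the imprinted mean difference ran from -3.50 to -1.26 points. That imprinted difference was -0.865 points at 5 reads. The results of this section kept their sign under the alternatives run. The difference in mixed tiles did not: it went from -0.347 to 0.200 points without KO replicate 2. Depth limits single CpGs most: at 10 reads with 5 methylated the 95% exact interval runs from 18.7% to 81.3%.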

Other observations

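The X chromosome, which the selection of tiles left out, held 253 CpG-dense tiles of 20% to 80%. Their mean level was 27.1% and 27.2% in KO libraries, against 29.5% and 28.9% in WT libraries. In KO, 182 of 253 were lower (71.9%), against 46% of all tested tiles. Both KO libraries lay below both WT libraries in 90 of these tiles and above them in 14. Over all tested tiles those shares were 14.9% and 19.5%. The quasi-binomial model called 0 of them, against 0.0807% of all tested tiles. It put 38 (15%) at an unadjusted p under 0.05, against 5.84% of all tested tiles. Limma called 0, as it did over all tested tiles. It put 2 (0.791%) at an unadjusted p under 0.05, against 5.54% of all tested tiles. The labels give no sex, and no test was made.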
